A study of Mus musculus with 9 samples.

Results

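The genes described here are 39 components of DNA damage signalling and DNA repair, chosen by name for their roles and matched to the arrays through the RefSeq transcript of each probe. Of the 39 genes, 38 had a probe well above background on all 3 arrays of at least 1 group, out of 16843 genes kept by the same filter. Fancd2, the ubiquitylated clamp subunit of the Fanconi pathway, had 1 probe and was not kept. All 38 kept genes were well above background on all 9 arrays, so none entered through a single group.

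RNA came from the whole lung of 9 mice, 1 Agilent one-colour array per lung, in 3 groups of 3 biological replicates. All mice carried TRF1flox/flox, a conditional allele of Terf1, which encodes a protein of the telomere-capping shelterin complex, and all received tamoxifen at 250 mg/kg per week. The control mice were TRF1flox/flox without cre, 11 months old and treated for 9 months. The SPC-cre TRF1flox/flox mice, whose lungs are called cre lungs here, were 5 months old and treated for 3 months (early) or 11 months old and treated for 9 months (late). The SPC (surfactant protein C) promoter drives cre in alveolar type 2 cells, which are a minority of the cells of a whole lung, so RNA from cells that keep Terf1 was measured together with RNA from cells that may have lost it. No control lungs of the 3-month collection were analysed here, and the 3-month comparison with controls therefore also differs in age and in length of tamoxifen. In RNA from a whole organ, fewer cells of a type and less RNA per cell cannot be told apart.

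DNA double-strand breaks, and telomeres that have lost their cap, are bound by the Mre11, Rad50 and Nbn complex, which activates the kinase ATM, while single-stranded DNA coated with RPA activates the kinase ATR through ATRIP and TOPBP1. The kinases mark chromatin, recruit mediators such as MDC1 and 53BP1, and stop the cell cycle through CHK1, CHK2 and p53. Breaks are then joined end to end by Ku, DNA-PKcs and ligase IV, or copied from a sister chromatid by the homologous recombination proteins, whose genes are transcribed mainly in cycling cells. Much of this pathway is regulated by phosphorylation and ubiquitylation of proteins, which an expression array does not measure.

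None of the 38 genes passed the test in any of the 3 comparisons. The test was limma's moderated test over all 16843 genes with Benjamini-Hochberg adjustment, and a gene was called at an adjusted p under 0.05. In the 9-month cre lungs against the controls, 0 of 38 were called, where 3.65% of all genes were called higher and 2.81% lower (614 and 473 genes). On the authors' deposited normalized values the same fit gave 554 higher and 651 lower, so the balance of directions over all genes depended on the scaling. In the 3-month cre lungs against the controls 0 of 38 were called, where 0.368% of all genes were called higher and 0.0831% lower. Between the 9-month and the 3-month cre lungs 0 of 38 were called, where 1.79% of all genes were called higher and 3.2% lower.

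At an unadjusted p under 0.05, limma gave 7 of the 38 genes in the 9-month comparison with controls, 2 with higher and 5 with lower means. That is 18.4% of the genes, beside 27.3% of all genes tested. The 3-month comparison gave 9 genes, 5 higher and 4 lower, or 23.7% beside 18.7% of all genes. The late against the early cre lungs gave 13 genes, 4 higher and 9 lower, or 34.2% beside 28.7% of all genes. The median log2 difference of the 38 genes was -0.01 in the 9-month comparison with controls (all genes 0.02), 0.11 in the 3-month comparison (all genes 0.05) and -0.08 between the cre groups (all genes -0.03). As counts of arrays that did not overlap between groups, 5 genes stood above and 8 below the controls at 9 months (all genes 17.5% above and 15% below). At 3 months 8 stood above and 4 below (19.6% and 11.4%), and between the cre groups 5 stood above and 10 below (14.6% and 19%). Each pair of comparisons shares a group of lungs, so they are not independent of each other.

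**Figure D1:**
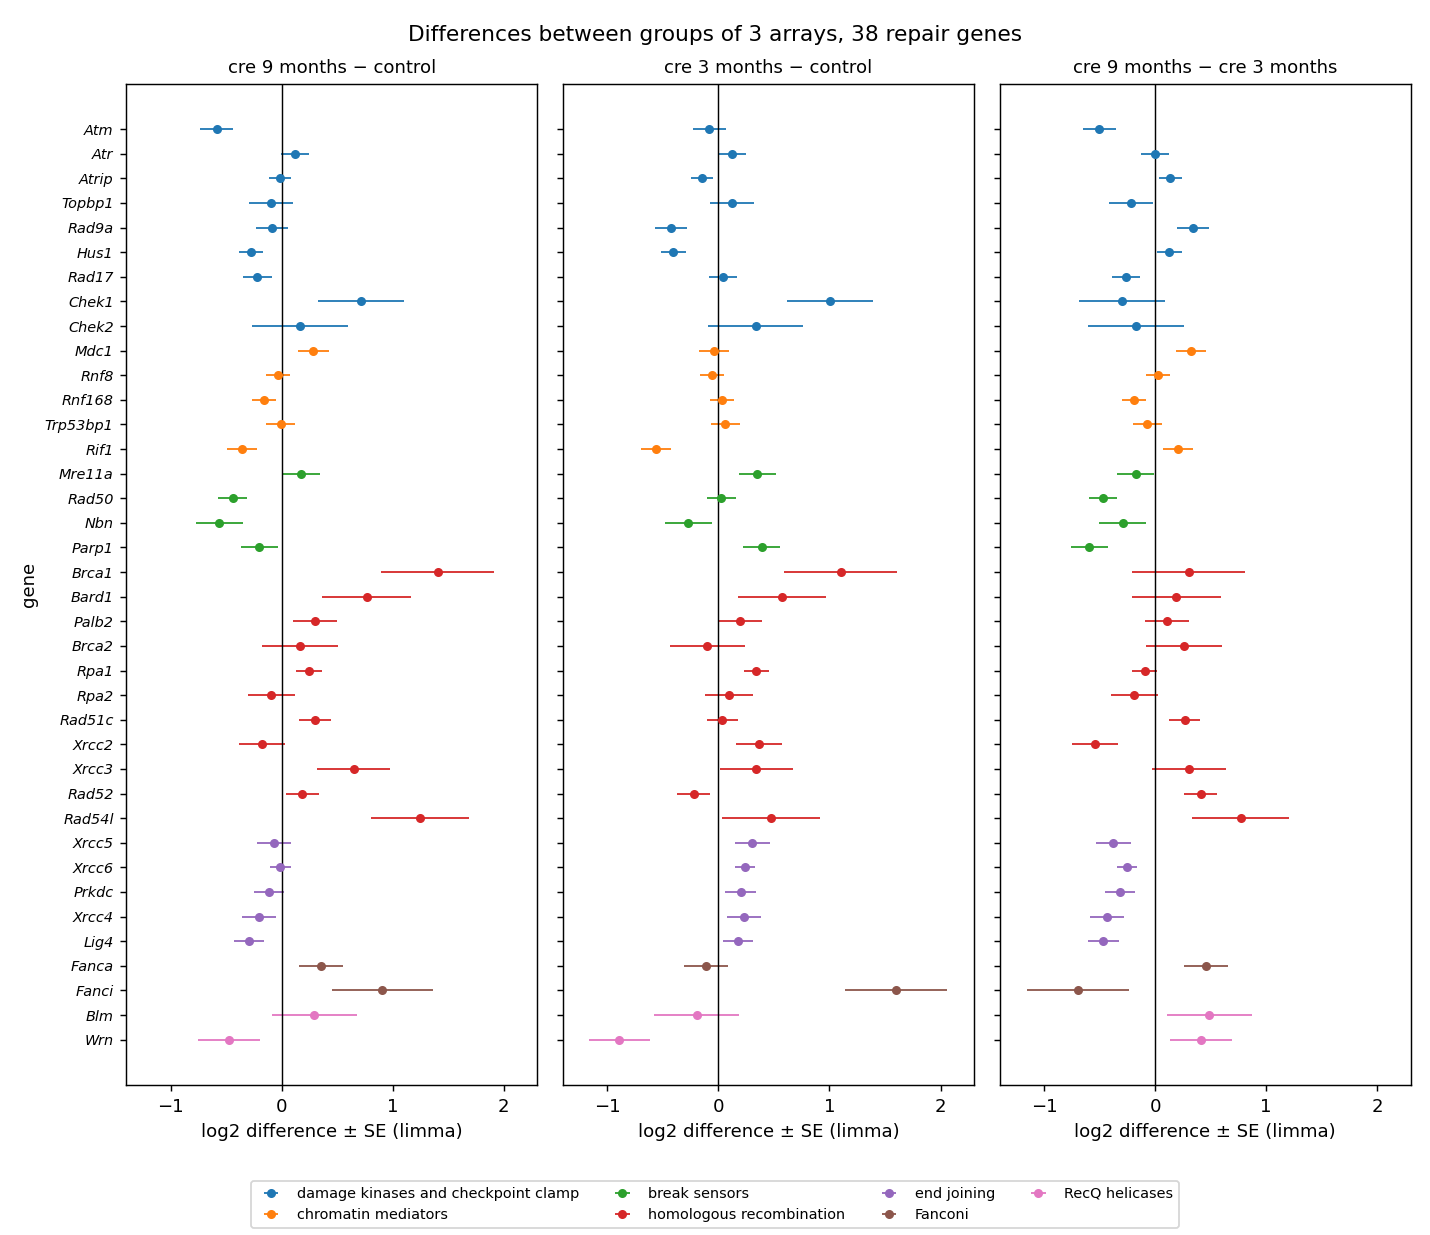
Log2 differences between groups with the standard error of the limma fit (x axes) for the 38 genes (y axis), coloured by role, with 3 arrays per group. Most differences lie between -0.6 and 0.6; the wide bars of Brca1, Bard1, Rad54l, Fanci, Chek1, Chek2 and Blm show the spread between lungs, and all 5 end-joining genes lie below 0 in the right-hand panel.

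The arrays lay on 2 slides. One slide held the 3 controls and 3-month cre replicate 1, the other held the remaining 3-month cre lungs and all 9-month cre lungs. Controls and 9-month cre lungs never shared a slide, so with slide as a block their difference runs through the 3-month lungs. Within a slide, the median of the 38 genes was 0.18 for the single 3-month cre lung against the 3 controls, and -0.09 for the 9-month against the 2 other 3-month cre lungs. With slide as a block limma called 0 of the 38 genes in each comparison. At an unadjusted p under 0.05 there were 0, 1 and 9 at 9 months, at 3 months and between the cre groups. The share of all genes at that p was not counted in this fit, so these counts cannot be set beside it. In the same fit 0 of all 16843 genes were called in any comparison, so the calls below from the fit of all 9 arrays over genes were lost with it. The fits over single probes, over the mean of all probes and without a lung were not run with the block. The labels give no sex, but the Xist probe was low in all 3 controls and in 1 lung of each cre group and high in the other 4 cre lungs. With that split as a covariate 0 of the 38 genes were called, and 4, 3 and 9 had an unadjusted p under 0.05. The share of all genes at that p was not counted with this covariate either. Of all 16843 genes that fit called 0 in either comparison with the controls and 234 between the cre groups. The calls below against the controls, from the fit of all 9 arrays over genes, were thus lost with it too.

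Terf1 itself averaged -0.07 ± 0.28 (SD, n = 3) in the controls, -0.63 ± 0.05 in the 3-month and -0.59 ± 0.33 in the 9-month cre lungs, as log2 level relative to the array's 75th percentile, the scale of every level in this text. Its differences from the controls were -0.55 ± 0.19 (SE, limma adjusted p = 0.190) at 3 months and -0.52 ± 0.19 (adjusted p = 0.131) at 9 months. The sources used here do not say whether its 1 probe lies inside the floxed exons. Marker lists of other cells moved between groups: 5 of 9 macrophage markers and 4 of 8 neutrophil markers rose, and 3 of 8 fibroblast markers fell, in the 9-month cre lungs against the controls (limma). The summed macrophage level was 5.44 to 5.85 in the controls, 6.44 to 6.81 in the 3-month and 6.17 to 7.02 in the 9-month cre lungs. The summed neutrophil level was 5.01 to 7.29, 7.31 to 7.84 and 7.02 to 8.56, and the fibroblast level 7.02 to 7.60, 7.03 to 7.12 and 6.59 to 7.25. The part of these cells in the levels of the repair genes was not tested.

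**Figure D2:**
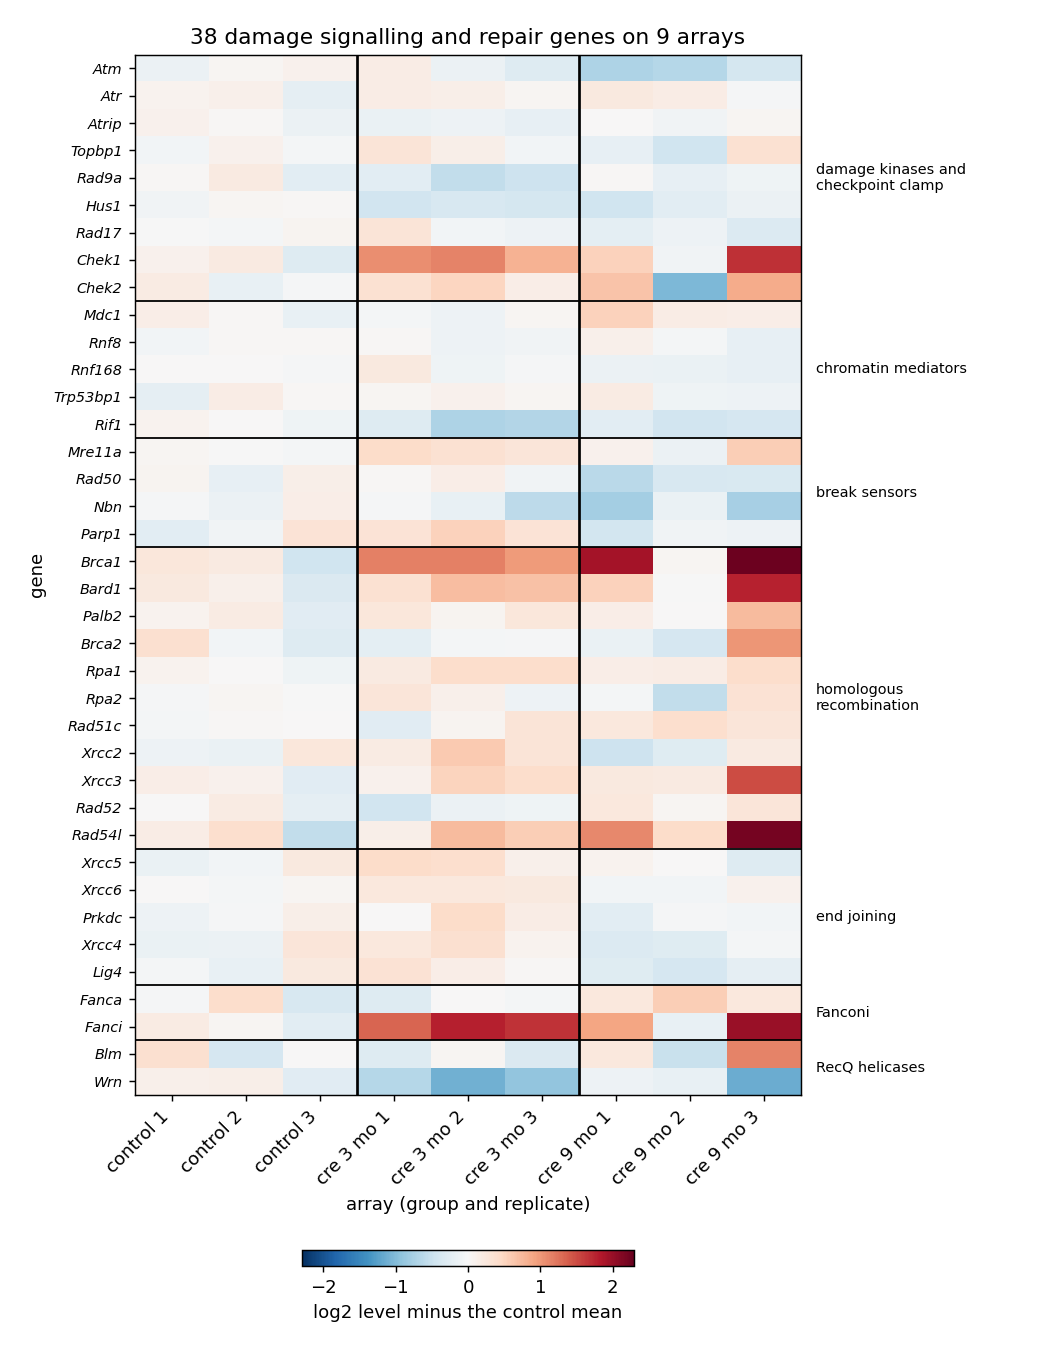
Log2 level of each of the 38 genes (rows, grouped by role) on each array (columns), minus the mean of the 3 controls. The third 9-month cre lung is the reddest column for Brca1, Bard1, Rad54l, Fanci and Chek1, and the second 9-month cre lung is near the controls for them.

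Among the damage kinases and the checkpoint clamp, ATM had the smallest p of all 38 genes in the 9-month comparison. Atm, the kinase that responds to double-strand breaks and uncapped telomeres, stood at -0.43, -0.26 and -0.21 in control replicates 1, 2 and 3, at -0.13, -0.43 and -0.59 in the 3-month cre lungs, and at -1.0, -0.95 and -0.70 in the 9-month cre lungs. All 9-month cre lungs lay below all other lungs. The difference was -0.58 ± 0.15 (SE) against the controls (limma adjusted p = 0.0539) and -0.50 ± 0.15 against the 3-month cre lungs (adjusted p = 0.0745), and -0.08 ± 0.15 between the 3-month cre lungs and the controls (adjusted p = 0.793). With slide as a block the 9-month value against the controls was -0.20 (adjusted p = 0.985), and within the second slide the late cre lungs were -0.37 from the early ones. A second Atm probe gave -0.34 against the controls and -0.72 between the cre groups, the latter with an adjusted p of 0.0422 over 37647 probes. The 9-month difference passed the test without 3-month cre replicate 1 (-0.58, adjusted p = 0.0427) and without 9-month cre replicate 3 (-0.68, adjusted p = 0.0461).

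Atr, the kinase for stalled replication forks, did not share this order. Its levels were 1.66, 1.69 and 1.38 in the controls, 1.76, 1.71 and 1.63 in the 3-month and 1.80, 1.75 and 1.55 in the 9-month cre lungs. The 3 groups overlapped, and the differences from the controls were 0.12 ± 0.12 at both times (SE, limma adjusted p = 0.622 at 3 months and 0.551 at 9 months). Atrip, the partner that brings ATR to RPA, differed by -0.15 ± 0.10 at 3 months and by -0.01 ± 0.10 at 9 months, and Topbp1, the activator of ATR, by 0.12 ± 0.20 and -0.10 ± 0.20.

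The 9-1-1 clamp (Rad9a, Hus1 and Rad1) and its loader Rad17 hold TOPBP1 at damaged DNA. Hus1 stood at -0.12, -0.0018 and -0.02 in the controls, at -0.48, -0.42 and -0.46 in the 3-month cre lungs and at -0.50, -0.29 and -0.18 in the 9-month cre lungs. Every cre lung was below every control. The difference was -0.41 ± 0.11 at 3 months (limma adjusted p = 0.130) and -0.28 ± 0.11 at 9 months (adjusted p = 0.151). Within the first slide the 3-month value was -0.44. Rad9a differed by -0.43 ± 0.14 at 3 months (adjusted p = 0.180), with its 3 lungs below the controls, but by -0.09 ± 0.14 at 9 months. A second Rad9a probe gave -0.04 and -0.44, so the 2 probes did not share the time at which the mean was lower. Rad17 was below the controls in all 9-month lungs by -0.22 ± 0.13 (adjusted p = 0.298), but its value with slide as a block was 0.16. The 9-month values of Topbp1 and Rad9a also turned, to 0.15 and 0.19.

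The effector kinases varied widely within the 9-month group. Chek1, which stops the cycle when replication stalls, stood at -4.21, -4.11 and -4.61 in the controls, at -3.24, -3.17 and -3.50 in the 3-month cre lungs and at -3.79, -4.39 and -2.63 in the 9-month cre lungs. The 3-month lungs were all above the controls, by 1.00 ± 0.39 (limma adjusted p = 0.218), and 9-month replicate 2 lay among the controls with the other 2 above them. The 3-month difference passed the test when only these 2 groups entered the fit (adjusted p = 0.0453). A second Chek1 probe gave 0.61 at 3 months, with lungs that overlapped the controls, and 0.95 at 9 months. Late minus early it gave 0.34, where the reported probe gave -0.29. Chek2, the target of ATM, was at -4.99, -5.35 and -5.22 in the controls and at -4.54, -6.21 and -4.33 in the 9-month cre lungs. Its 9-month mean difference was 0.16 ± 0.43, with replicate 2 below and the others above all controls. Without 9-month cre replicate 2 the Chek2 difference was 0.75 (adjusted p = 0.0316). Its 1 probe was near the floor of the arrays. The dimmest signals well above background were at -5.09, -5.39 and -5.59 in the controls and at -6.38 in 9-month replicate 2. The sign of the 9-month difference turned under 3 of 20 alternatives, 1 of them another scaling.

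On the reported probes, the mediators that read the damage mark on chromatin had small differences, apart from Mdc1 and Rif1. Trp53bp1, which encodes 53BP1 and directs breaks to end joining, differed from the controls by 0.06 ± 0.13 at 3 months and -0.01 ± 0.13 at 9 months. Rnf8 and Rnf168, the ubiquitin ligases that recruit it, differed from the controls by -0.16 to 0.04 at both times, with the 9-month lungs all below the others for Rnf168. With slide as a block the 9-month values were 0.13 for Rnf168 and 0.09 for Rnf8. A second Rnf8 probe gave -0.41 at 9 months, with all late lungs below the controls, and -0.43 late minus early. Mdc1, the scaffold on phosphorylated H2AX, was at 0.94, 0.81 and 0.62 in the controls and at 1.31, 0.96 and 0.95 in the 9-month cre lungs, the latter all above the former by 0.28 ± 0.14 (limma adjusted p = 0.219). A second Mdc1 probe did not share it, with -0.03 at 9 months.

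Rif1, which acts with 53BP1 against resection and also times replication, had the smallest p of the 38 genes at 3 months. Its levels were 1.05, 0.97 and 0.87 in the controls, 0.66, 0.25 and 0.29 in the 3-month cre lungs and 0.72, 0.53 and 0.57 in the 9-month cre lungs, so all 6 cre lungs were below the controls. The difference was -0.56 ± 0.13 at 3 months (limma adjusted p = 0.108) and -0.36 ± 0.13 at 9 months (adjusted p = 0.132). A second Rif1 probe did not share it, with 0.34 at 3 months and 0.03 at 9 months, and with slide as a block the 9-month value of the first probe was 0.03.

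The break sensors had lower means in the 9-month than in the 3-month cre lungs for all 4 genes, also under the 4 other scalings tried and with slide as a block. Rad50, the ATPase that bridges broken ends, stood at 1.38, 1.14 and 1.45 in the controls, at 1.34, 1.47 and 1.23 in the 3-month cre lungs and at 0.71, 0.95 and 0.98 in the 9-month cre lungs. As for Atm, the 3 late cre lungs lay below all others. The difference was -0.44 ± 0.13 against the controls (limma adjusted p = 0.0768) and -0.47 ± 0.13 against the 3-month cre lungs (adjusted p = 0.0656), and -0.47 within the second slide. A second Rad50 probe gave 0.18 and 0.09. Nbn, the subunit that binds ATM, was at -0.53, -0.66 and -0.35 in the controls and at -1.29, -0.67 and -1.27 in the 9-month cre lungs, a difference of -0.56 ± 0.21 (adjusted p = 0.133). Without 9-month cre replicate 2, the one of the 3 that was nearest to the controls, it was -0.77 (adjusted p = 0.0456). With slide as a block it was -0.20.

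Against the controls Mre11a, the nuclease of the complex, did not follow its partners, though late minus early it was lower too (-0.18). It differed by 0.35 ± 0.17 at 3 months (limma adjusted p = 0.301), with all 3 lungs above the controls, and by 0.17 ± 0.17 at 9 months. Parp1, which binds nicks and breaks and builds poly(ADP-ribose), stood at -0.43, -0.27 and 0.13 in the controls, at 0.13, 0.34 and 0.13 in the 3-month cre lungs and at -0.61, -0.28 and -0.30 in the 9-month cre lungs. The early cre lungs were above every late cre lung. The late minus early difference was -0.59 ± 0.17 (adjusted p = 0.0672, and 0.0433 without control replicate 3) and -0.63 within the second slide, and the 3-month difference from the controls was 0.39 ± 0.17 (adjusted p = 0.257).

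The end-joining genes shared an order of the group means. All 5 had means above the controls at 3 months, and all 5 had lower means and no overlapping arrays in the 9-month against the 3-month cre lungs. The late minus early differences ran from -0.47 to -0.25 with a median of -0.38, where the median over all genes was -0.03 and 19% of all genes had late arrays all below the early ones. None was called, with limma adjusted p from 0.0733 to 0.171 and all 5 at an unadjusted p under 0.05. The late minus early sign held for all 5 under each of the 4 other scalings, with slide as a block and without 9-month cre replicate 2 or 3. With the mean of all probes of a gene it held for the other 4, and Prkdc gave 0.12. Against the controls the late means were lower for all 5 (median -0.11), but for only 3 of 5 with slide as a block (median -0.04). Markers of other cells also moved between the groups, not all of them in this order. All 8 T cell markers had higher means at 3 months than in the controls and lower means late than early, with none called by limma, 4 and 2 of them at an unadjusted p under 0.05. Their summed level was 3.75 to 4.26 in the controls, 4.49 to 4.53 in the 3-month and 4.05 to 4.27 in the 9-month cre lungs. Of 9 alveolar type 2 markers, 9 had higher means at 3 months and 6 had lower means late than early, 2 of these called lower, with summed levels of 9.36 to 9.58, 9.49 to 9.95 and 9.60 to 9.98. Of 8 fibroblast markers, 5 had means below the controls at 3 months, and 3 were called lower late than early. The part of these cells in the end-joining values was not tested.

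Lig4, the ligase that seals the ends, was at -0.01, -0.13 and 0.26 in the controls, at 0.38, 0.18 and 0.07 in the 3-month cre lungs and at -0.24, -0.36 and -0.17 in the 9-month cre lungs. All late cre lungs were below every control and every early cre lung. The late minus early difference was -0.47 ± 0.14 (limma adjusted p = 0.0733) and -0.38 within the second slide. A second Lig4 probe gave -0.97, with an adjusted p of 0.0387 over 37647 probes, and the mean of both probes gave -0.72 (adjusted p = 0.0413 over all genes). Against the controls the late difference was -0.29 ± 0.14 (adjusted p = 0.206).

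Xrcc4, the partner that stabilises ligase IV, stood at -0.15, -0.14 and 0.28 in the controls, at 0.23, 0.37 and 0.07 in the 3-month cre lungs and at -0.31, -0.28 and -0.04 in the 9-month cre lungs. Its late minus early difference was -0.44 ± 0.15 (limma adjusted p = 0.109), with control replicate 3 as high as the early cre lungs. Xrcc6, which encodes Ku70, ranged over only 0.32 on the 9 arrays, with 1.62, 1.57 and 1.65 in the controls, 1.86, 1.85 and 1.85 in the 3-month cre lungs and 1.55, 1.54 and 1.71 in the 9-month cre lungs. The early cre lungs were all above the others, by 0.24 ± 0.09 over the controls (adjusted p = 0.220), and the late minus early difference was -0.25 ± 0.09 (adjusted p = 0.122). Xrcc5, which encodes Ku80, differed late minus early by -0.38 ± 0.15 and Prkdc, which encodes DNA-PKcs, by -0.31 ± 0.14. A second Prkdc probe ran the other way, with -0.70 at 3 months against the controls and 0.54 late minus early.

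**Figure D3:**
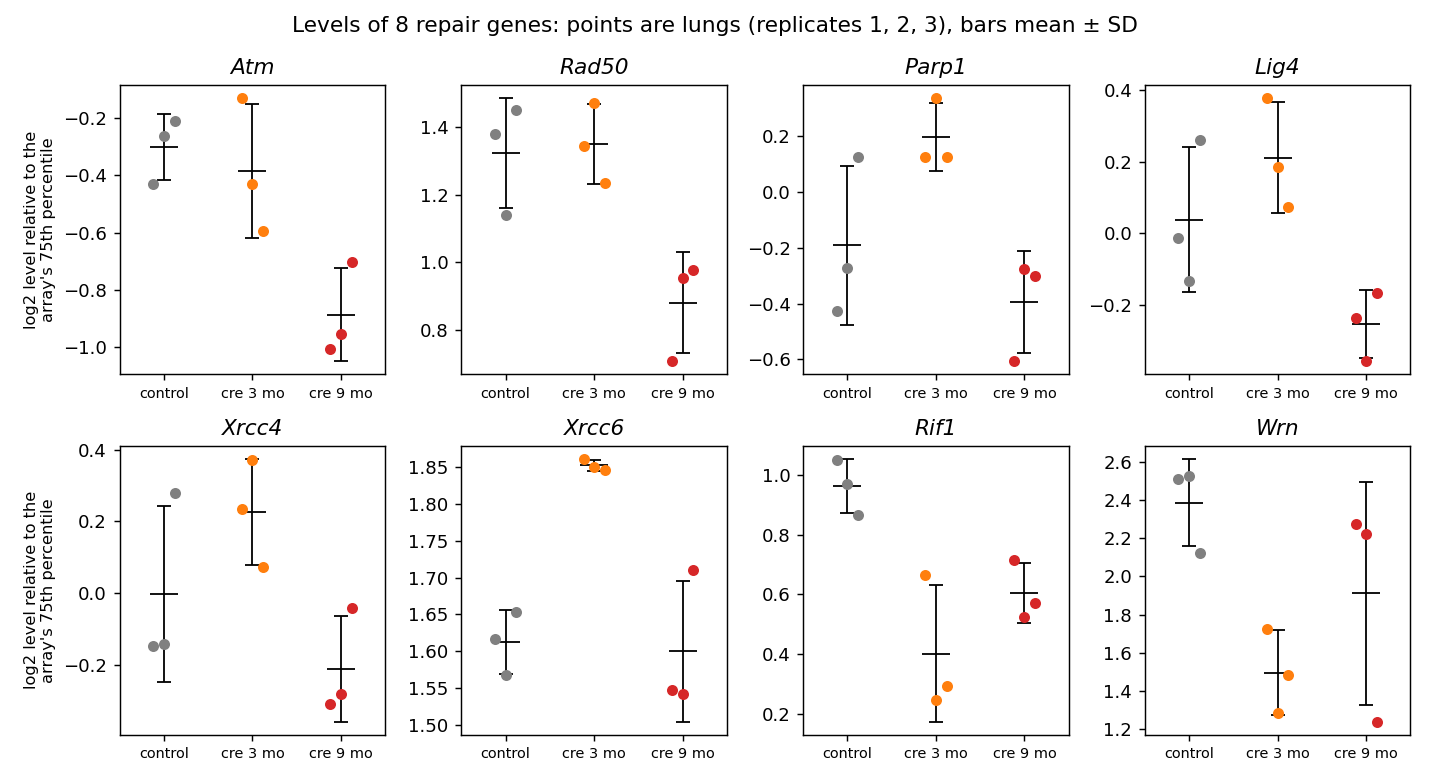
Log2 level relative to the array's 75th percentile (y axes, each with its own range) of 8 genes in the 3 groups. Points are single lungs and bars the mean ± SD of 3; the 9-month cre lungs are the lowest group for Atm, Rad50 and Lig4, and the 3-month cre lungs are above both other groups for Xrcc6, and for Rif1 all cre lungs are below the controls, and for Wrn the third 9-month lung lies with the 3-month lungs.

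On the reported probes, homologous recombination genes had higher means than the controls for 9 of 11 genes at both times. The medians were 0.30 at 9 months and 0.34 at 3 months (all genes 0.02 and 0.05). Without 9-month cre replicate 3 the late values were 8 of 11 and 0.16, and with slide as a block 7 of 11 and 0.18. Late means were above early ones for 8 of 11 genes, but for 3 of 11 without that replicate. Brca1, which promotes resection of the broken ends, stood at -2.66, -2.71 and -3.38 in the controls, at -1.76, -1.75 and -1.93 in the 3-month cre lungs and at -0.99, -2.87 and -0.67 in the 9-month cre lungs. All early cre lungs were above the controls, and the second late lung was among the controls while the other 2 were the highest of all. The difference was 1.10 ± 0.51 at 3 months (limma adjusted p = 0.287) and 1.40 ± 0.51 at 9 months (adjusted p = 0.123). Without 9-month cre replicate 2 the latter was 2.08 (adjusted p = 0.00764), and without replicate 3 it was 0.98. Brca1 was called at 9 months under 1 of 20 alternatives. A second Brca1 probe gave 0.50 and 1.11, with the 3 late lungs at -3.48, -3.48 and -3.46, so it did not show the low value of replicate 2.

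Rad54l, a DNA motor protein of strand exchange, was at -3.09, -2.87 and -3.83 in the controls, at -3.13, -2.54 and -2.70 in the 3-month cre lungs and at -2.16, -2.84 and -1.05 in the 9-month cre lungs. The late lungs were all above the controls, the second only just. The difference was 1.24 ± 0.44 (limma adjusted p = 0.115), 1.66 without 9-month cre replicate 2 (adjusted p = 0.0441) and 0.73 with slide as a block. Bard1, the obligate partner of BRCA1, differed by 0.57 ± 0.40 at 3 months and 0.76 ± 0.40 at 9 months, and its levels in the late cre lungs were -1.84, -2.37 and -0.59. Xrcc3, a recombination factor, was at -3.21, -3.23 and -1.94 in those lungs and above all controls in each (0.65 ± 0.33, adjusted p = 0.240).

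Brca2, a mediator of strand exchange, had late levels of -1.81, -2.04 and -0.64 around a control mean of -1.66 ± 0.33 (SD, n = 3), and Palb2, which links BRCA1 to BRCA2, -3.19, -3.33 and -2.62 around -3.35 ± 0.23. In both, the third late lung was above all controls. The second lay just below them for Brca2, and the remaining values lay within their range. At 9 months the reported Brca2 probe gave 0.16, and its 2 further probes gave -0.09 and -0.39. A second Palb2 probe gave 0.65, where the reported one gave 0.30. Rpa1, the large subunit of the single-strand binding protein, was above the controls in all 6 cre lungs, by 0.34 ± 0.11 at 3 months (limma adjusted p = 0.180) and 0.25 ± 0.11 at 9 months (adjusted p = 0.206). Rpa2, its second subunit, differed by 0.10 ± 0.21 and -0.09 ± 0.21, the latter 0.18 with slide as a block.

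Rad51c, which forms a complex with the product of Xrcc3, was above the controls in all late lungs by 0.30 ± 0.14 (limma adjusted p = 0.211), but with slide as a block its value was -0.14, and Xrcc2, another recombination factor, was lower late than early by -0.54 ± 0.21 (adjusted p = 0.130). Rad52, which anneals single strands, stood at -0.48, -0.29 and -0.70 in the controls, at -0.93, -0.62 and -0.60 in the 3-month cre lungs and at -0.25, -0.45 and -0.21 in the 9-month cre lungs. The late cre lungs were all above the early ones, by 0.41 ± 0.15 (adjusted p = 0.114), and both overlapped the controls. A second Rad52 probe gave 0.23 late minus early. Against the controls it gave 0.23 at 3 months, where the reported probe gave -0.22, and 0.46 at 9 months.

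Of the Fanconi genes, which repair crosslinks between strands, Fanci had the largest difference of the 38 genes at 3 months. Fanci, the partner of FANCD2, stood at -3.39, -3.54 and -3.82 in the controls, at -2.24, -1.79 and -1.92 in the 3-month cre lungs and at -2.68, -3.76 and -1.59 in the 9-month cre lungs. The early lungs were all above the controls, by 1.60 ± 0.46 (limma adjusted p = 0.138), or 3.03-fold, and by 1.35 within the first slide. The adjusted p was 0.0175 when only these 2 groups entered the fit and 0.0440 without 9-month cre replicate 3. The late lungs differed by 0.91 ± 0.46 (adjusted p = 0.236), with the second among the controls. The value was 1.45 without that lung (adjusted p = 0.0344) and 0.36 without the third.

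Fanca, a core subunit, was higher late than early by 0.46 ± 0.20 (limma adjusted p = 0.169). A second kept Fanca probe gave 0.11. Fancd2 was well above background on 0, 1 and 2 arrays of the control, 3-month and 9-month groups, so its group means are not compared. The highest of its 9 signals, at -4.57, was again in the third 9-month cre lung.

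The RecQ helicases unwind joint molecules and act at telomeres. Wrn stood at 2.51, 2.53 and 2.12 in the controls, at 1.72, 1.28 and 1.48 in the 3-month cre lungs and at 2.27, 2.22 and 1.24 in the 9-month cre lungs. The early lungs were all below the controls, by -0.89 ± 0.28 (limma adjusted p = 0.158), and by -0.66 within the first slide. Only the third late lung was as low. Without that lung, which is not in the early comparison and changes only its error, the early adjusted p was 0.0444, and the late minus early difference was 0.75 (adjusted p = 0.0486). The 3 other kept Wrn probes gave 0.10, -0.46 and 0.02 at 3 months, and 0.08, 0.46 and -0.09 late minus early. Both the size and the sign thus depended on the probe. Blm differed by 0.29 ± 0.38 at 9 months, again with its highest level, -0.63, in the third late lung.

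Of the 38 genes, 18 had a second kept probe or more, 21 further probes in all. The further probe had the sign of the reported one for 13 of 21 in the 9-month comparison, for 11 of 21 in the 3-month comparison and for 9 of 21 between the cre groups. The median absolute gap between the log2 differences of 2 probes of a gene was 0.29, 0.39 and 0.43. Values in the text without the word probe are those of 1 probe per gene, the one with the highest mean signal. The sources used here do not say where on its transcript a probe lies.

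**Figure D4:**
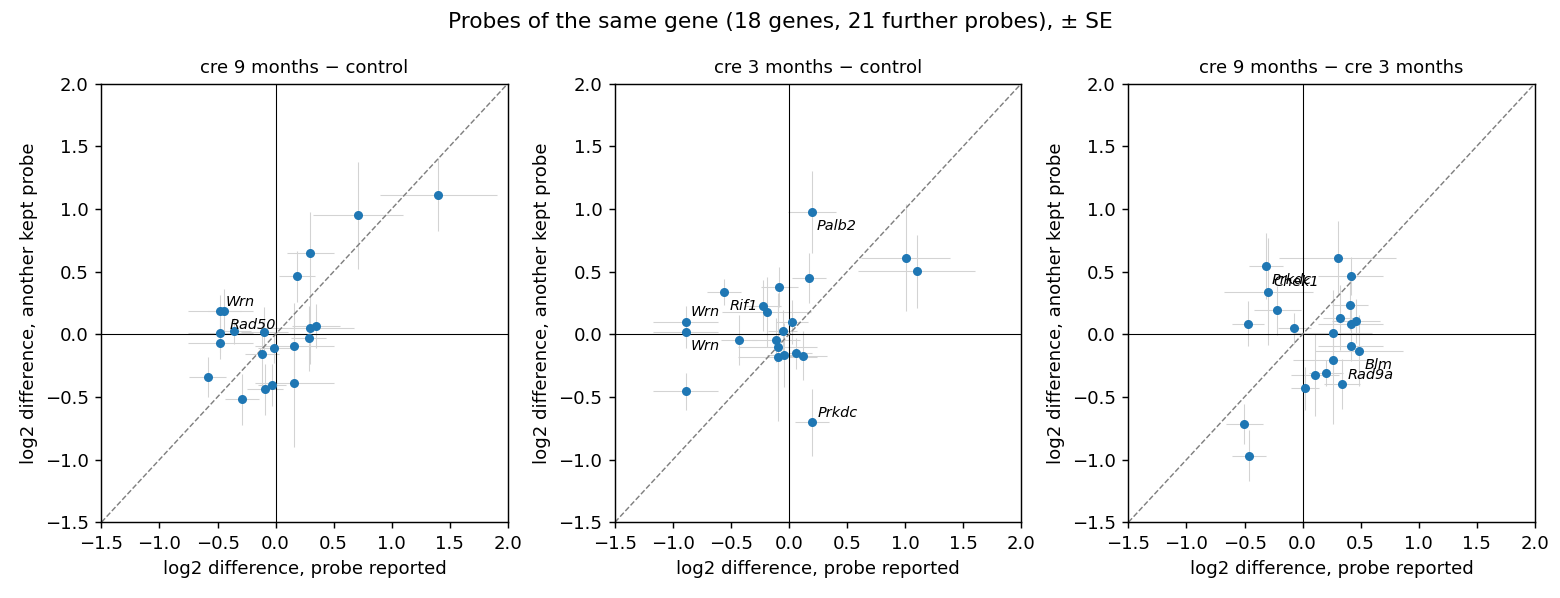
Log2 difference given by another kept probe of a gene (y axes) against that of the probe reported in the text (x axes), with standard errors, for 18 genes and 21 further probes in 3 comparisons. Points off the dashed diagonal differ between probes; Wrn, Rif1 and Prkdc are far from it at 3 months, and Lig4 lies below 0 on both axes between the cre groups.

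The genes differed in how far they spread over the 9 arrays. For 11 of 38 genes the highest and lowest arrays differed by more than 1 log2 unit, as for 38.7% of all genes, and 9 of these 11 were highest in 9-month cre replicate 3. The same share over all genes of so wide a range was not counted. Over all 38 genes this lung was the highest for 15, beside 17% of all genes, and control replicate 3 was the lowest for 11, beside 12.1%. The median range was 0.78 for the repair genes and 0.82 for all genes.

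Some of the genes of wide range shared part of their order over the lungs with proliferation genes. The mean log2 level of 26 proliferation genes (cyclins, mitotic kinases and replication licensing factors) was -0.47, -0.49 and -0.79 in the controls, 0.13, 0.28 and -0.08 in the 3-month cre lungs and -0.33, -0.72 and 1.27 in the 9-month cre lungs. The third late lung was the highest and the second was within the range of the controls, as for Brca1, Bard1, Fanci and Chek1. The early cre lungs were all above the controls for the list and for these 4 genes. In the first late lung the list, Fanci and Chek1 were below every early cre lung. Brca1 and Rad54l were there above every early cre lung. Of the 26 proliferation genes, 0 were called by limma in any comparison, 2 had an unadjusted p under 0.05 at 9 months, 3 at 3 months and 0 between the cre groups, all higher, and all 26 were well above background on all 9 arrays. Their summed level was 5.01 to 5.28 in the controls, 5.65 to 5.93 in the 3-month and 5.16 to 6.68 in the 9-month cre lungs. The smallest p at 9 months were those of Ccne1, a cyclin of the G1/S step (0.93), and Aurka, a mitotic kinase (1.02). The part of cycling cells in the levels of the repair genes was not tested.

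**Figure D5:**
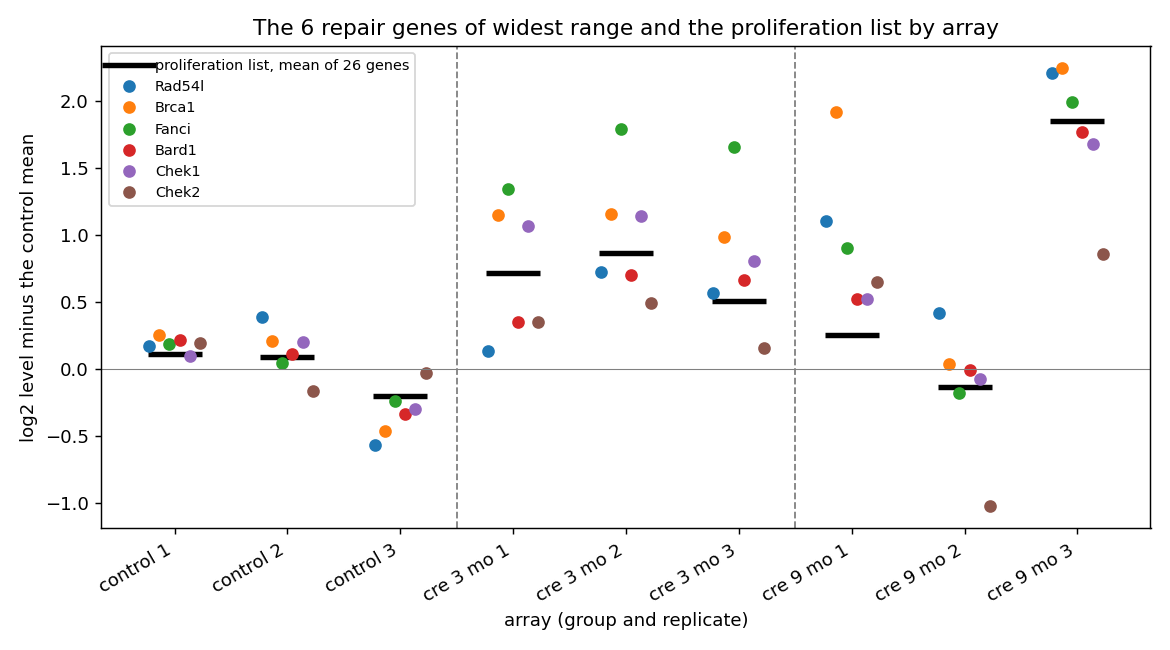
Log2 level minus the control mean (y axis) of the 6 repair genes with the widest range and of the mean of 26 proliferation genes (black bars) on each array (x axis). In the third 9-month cre lung all 6 genes and the bar are above 0.8, and in the second 9-month cre lung 5 of the 6 genes and the bar are between -0.2 and 0.5, with Chek2 lower.

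Promoter sequences are shown for the 2 genes with an entry and the smallest unadjusted p in each comparison. Brca1 and Chek1 were added after their values were seen because they followed the proliferation list in part. Of the 39 genes, 31 matched the RefSeq promoter table (build GRCm38.p6), which gives 250 bases before and 50 after each start site. Rad50 and Rif1 had no entry. Both strands were searched for the letters TTCCCGC and TTGGCGC, which E2F factors of the cell cycle bind, for TTTGAA, the cell cycle homology region (CHR), and for CCAAT, which can share letters with the second E2F sequence. Capitals mark any of these letters on either strand, written 5′ to 3′ along the gene.
Atm, chr9:53536622-53536921 (- strand): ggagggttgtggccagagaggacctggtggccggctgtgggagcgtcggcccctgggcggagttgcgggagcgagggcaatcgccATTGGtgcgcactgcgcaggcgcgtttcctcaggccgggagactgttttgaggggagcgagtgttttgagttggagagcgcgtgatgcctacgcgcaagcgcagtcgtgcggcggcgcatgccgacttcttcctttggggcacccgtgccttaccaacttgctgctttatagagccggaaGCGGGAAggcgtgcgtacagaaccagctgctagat
Fanci, chr7:79392088-79392387 (+ strand): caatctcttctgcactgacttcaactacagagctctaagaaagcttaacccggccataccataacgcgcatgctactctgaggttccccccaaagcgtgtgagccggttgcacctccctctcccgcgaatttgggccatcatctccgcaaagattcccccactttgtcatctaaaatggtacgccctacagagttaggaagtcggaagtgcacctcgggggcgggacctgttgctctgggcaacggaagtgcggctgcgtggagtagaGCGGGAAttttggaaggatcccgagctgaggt
Brca1, chr11:101551906-101552205 (- strand): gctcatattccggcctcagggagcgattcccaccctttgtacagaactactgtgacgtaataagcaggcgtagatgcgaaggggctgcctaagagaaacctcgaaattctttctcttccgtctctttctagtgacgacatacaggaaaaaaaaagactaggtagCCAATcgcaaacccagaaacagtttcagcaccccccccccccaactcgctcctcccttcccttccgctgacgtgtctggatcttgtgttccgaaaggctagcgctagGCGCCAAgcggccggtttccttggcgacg
Chek1, chr9:36726609-36726908 (- strand): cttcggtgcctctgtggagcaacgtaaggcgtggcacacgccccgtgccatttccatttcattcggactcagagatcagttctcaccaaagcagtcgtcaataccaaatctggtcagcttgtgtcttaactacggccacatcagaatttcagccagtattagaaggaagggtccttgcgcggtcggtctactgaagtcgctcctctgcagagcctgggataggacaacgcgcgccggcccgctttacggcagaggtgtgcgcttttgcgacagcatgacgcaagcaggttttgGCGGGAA
Rad54l, chr4:116123640-116123939 (- strand): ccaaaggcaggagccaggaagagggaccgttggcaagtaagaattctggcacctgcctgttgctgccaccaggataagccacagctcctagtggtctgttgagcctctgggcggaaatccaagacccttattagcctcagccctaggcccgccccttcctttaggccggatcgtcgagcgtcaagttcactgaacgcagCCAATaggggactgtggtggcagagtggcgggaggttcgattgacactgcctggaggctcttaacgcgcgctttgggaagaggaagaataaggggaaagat
Hus1, chr11:9011142-9011441 (- strand): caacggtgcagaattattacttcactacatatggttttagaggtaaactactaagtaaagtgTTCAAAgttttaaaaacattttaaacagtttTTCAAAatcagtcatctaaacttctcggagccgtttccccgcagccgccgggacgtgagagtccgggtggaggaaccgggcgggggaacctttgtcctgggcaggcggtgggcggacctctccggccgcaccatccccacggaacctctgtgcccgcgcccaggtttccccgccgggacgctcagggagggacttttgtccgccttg
Parp1, chr1:180568641-180568940 (+ strand): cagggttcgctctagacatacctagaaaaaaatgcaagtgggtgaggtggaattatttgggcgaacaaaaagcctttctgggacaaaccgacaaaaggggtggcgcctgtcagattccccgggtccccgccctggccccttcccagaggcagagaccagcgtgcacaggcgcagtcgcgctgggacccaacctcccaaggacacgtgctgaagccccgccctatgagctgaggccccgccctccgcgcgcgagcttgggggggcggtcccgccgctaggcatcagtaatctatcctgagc
Lig4, chr8:9976262-9976561 (- strand): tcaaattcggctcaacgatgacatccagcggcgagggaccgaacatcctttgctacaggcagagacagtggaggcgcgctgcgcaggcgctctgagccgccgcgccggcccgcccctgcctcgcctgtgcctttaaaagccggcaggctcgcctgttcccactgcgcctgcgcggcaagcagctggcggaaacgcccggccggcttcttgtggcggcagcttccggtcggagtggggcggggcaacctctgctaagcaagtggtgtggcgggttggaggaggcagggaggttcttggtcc

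In Atm, Fanci, Brca1 and Chek1 the E2F letters begin 15, 18, 21 and 43 bases after the start site. Atm, Brca1 and Rad54l hold CCAAT, Hus1 holds the CHR letters at 2 places and the windows shown for Parp1 and Lig4 hold none of the 3. Rad54l and Lig4 each have another window in the table, which holds no E2F letters either. Over the 31 matched genes, 16 had the E2F letters (51.6%), beside 12.2% of 13314 matched genes tested on the arrays and 7.79% of all 27025 genes in the table. The CHR letters were in 9.68% of the 31, beside 15.5% of the genes tested, and CCAAT in 51.6%, beside 42.1%. The E2F letters were in 6 of the 9 matched genes that ranged over more than 1 log2 unit and in 10 of the 22 others, so they were not limited to the genes of wide range. A match of letters is a description and not a measured binding site.

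The wider repair machinery was read from 8 further lists of 109 genes, of which 105 were measured. In the 9-month cre lungs against the controls, 3 of the 105 rose and 2 fell (limma), both smaller shares than the 3.65% and 2.81% of all genes. In the 3-month cre lungs 0 were called by limma, with 9 higher and 4 lower at an unadjusted p under 0.05, beside 18.7% of all genes. These counts do not set the lists apart from other genes, and the called genes are given as single values. The median difference of the 105 genes was 0.10 at 9 months and 0.07 at 3 months. Rbbp8, which encodes CtIP and starts resection with BRCA1, rose by 0.56 ± 0.12 (SE, limma adjusted p = 0.0329), and Dna2, a resection nuclease, by 0.84 ± 0.19 (adjusted p = 0.0397). Dclre1c, which encodes the end-joining nuclease Artemis, rose by 0.51 ± 0.13 (adjusted p = 0.0497). Fancc, a Fanconi core subunit, fell by 0.65 ± 0.13 (adjusted p = 0.0328), and Cdc25b, a phosphatase that starts mitosis, fell by 0.61 ± 0.13 (adjusted p = 0.0328). Each kept its direction under all 20 alternatives, and Dclre1c was called under 5 of them, Rbbp8 under 7, Dna2 under 8 and Fancc and Cdc25b under 10 each. None of the 5 was called without any 1 of the 3 controls or without 9-month cre replicate 1. With 1 lung left out the values lay between 0.43 and 0.99 for the 3 that rose and between -0.73 and -0.52 for the 2 that fell.

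Between the cre groups 2 of the 105 rose and 1 fell, beside 1.79% and 3.2% of all genes, which likewise does not set the lists apart. Dclre1c was higher late than early by 0.94 ± 0.13 (limma adjusted p = 0.0201) and Rbbp8 by 0.51 ± 0.12 (adjusted p = 0.0479), while Cdc25b was lower by 0.79 ± 0.13 (late minus early -0.79, adjusted p = 0.0276). Dclre1c was called under 14 of 20 alternatives, Cdc25b under 11 and Rbbp8 under 7. Over the 5 end-joining genes above, the late means were lower than the early ones, the other direction from Dclre1c. In 3 of the lists with no call at 9 months, the smallest p were those of Recql4 (0.71 ± 0.21) and Recql (-0.43 ± 0.15) among RecQ helicases and partners, Ercc6 (-0.53 ± 0.13) and Ercc5 (-0.46 ± 0.17) in nucleotide excision repair, and Parp2 (-0.35 ± 0.13) and Neil2 (0.30 ± 0.12) in base excision repair.

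Downstream of the kinases, 5 of 23 p53 target genes rose at 9 months (limma, all genes 3.65% higher), the largest being Gdf15 (2.78 ± 0.29) and Cdkn1a, which encodes p21 (2.08 ± 0.32). At 3 months 1 rose, Gdf15, by 2.05 ± 0.29 (adjusted p = 0.0339). Without any 1 control or any 1 3-month lung it was not called at 3 months (1.89 to 2.19). The kinases and mediators above were not called in either comparison.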

How the data were processed

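Whole-lung RNA was measured on 9 one-colour Agilent arrays, 3 per group. The deposited scanner intensity values were background-subtracted within each array by Agilent Feature Extraction 10.7.3.1, per the file headers, and were not scaled between arrays. The deposited series matrix holds the authors' normalized intensity values, linear, with array medians of 163 to 164, and was used as an alternative; the sources used here do not say how they were scaled. The deposited flags gave the spots well above background. Here log2 of the processed intensity was taken minus each array's 75th percentile, control spots and outlier flags were left out, and spots of a probe were averaged. Probes well above background on all 3 arrays of a group were kept (37647 of 56605). Probes were named through their RefSeq accession, and a gene took its probe of highest mean signal. Between 62.7% and 72.4% of probes were well above background per array, none was saturated, and the number of arrays limits the precision.

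The 3 groups were fitted together with limma 3.58.1 in R 4.3.3, with 6 residual degrees of freedom, 2-sided tests and Benjamini-Hochberg adjustment over 16843 genes. Figures were drawn with matplotlib 3.10.9. The fit was tested on simulated data. The labels call the samples biological replicates and give no litter or day. The p-values set differences of group means against the spread between lungs within groups. Without a block or covariate they do not separate cre from slide or from the Xist split. Alternatives were other scalings, filters, probe rules and samples in the fit, a slide or replicate block, sex read from Xist, and leaving out each lung. All 39 genes are accounted for; from every other list up to 4 called genes of largest change, or else the 2 of smallest p, could be named. The genes and lists were chosen with earlier results of these data known.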

Additional observations from a re-analysis of the deposited data

How the results depend on the processing

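The count of repair genes called was 0 in each comparison and moved as follows (limma). At 9 months against the controls it was 1 with normexp background correction and 1 on the authors' deposited values (Atm in both). It was 0 to 5 when 1 lung was left out, the 5 without 9-month cre replicate 2 (Brca1, Chek2, Fanci, Rad54l and Nbn). Over all genes the same fits called 1154, 1205 and, without that replicate, 1638. None of the 5 was called at 9 months under any other alternative. At 3 months the count was 2 when only the 2 groups were fitted (Fanci and Chek1). It was 0 to 2 when 1 lung was left out, the 2 without 9-month cre replicate 3 (Fanci and Wrn). Over all genes these fits called 389 and, without that replicate, 322. Between the cre groups the count was 2 with the mean of all probes of a gene (Lig4 and Atm), where 1100 of all genes were called. It was 0 to 1 when 1 lung was left out. The fits with 1 called 1224 of all genes without control replicate 3 and 1116 without 9-month cre replicate 3. The median of the repair genes ran from -0.08 to 0.09, from 0.05 to 0.18 and from -0.18 to 0.04 over the 20 alternatives.

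The sign of the difference was the same under all 20 alternatives for 21, 25 and 25 of the 38 genes. Replicate numbers did not pair the lungs, with correlations of deviations from -0.24 to 0.04 between lungs of the same number. With the replicate block 0 repair genes were called in each comparison, and calls over all genes went from 1087, 76 and 840 to 317, 42 and 6. Over all genes the calls were 0, 0 and 0 with slide as a block, 0, 0 and 234 with sex as a covariate, 489, 14 and 104 without the filter on dim probes, 185, 389 and 335 with only 2 groups fitted, and 158 to 1638, 1 to 322 and 0 to 1224 when 1 lung was left out. At 3 months they were also 49 with normexp, 43 on the deposited values and 45 for probes above background on all arrays, and between the cre groups 427 with scaling to the median.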
